A study of Mus musculus with 36 samples.

Results

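The genes described here are 10 canonical transcriptional targets of the tumour suppressor p53, namely Cdkn1a, Mdm2, Ccng1, Trp53inp1, Phlda3, Zmat3, Bax, Bbc3, Pmaip1 and Gdf15. They were taken by gene symbol from a count table of 54842 genes, and all 10 have a row in it. The table covers 36 total RNA libraries of mouse embryonic fibroblast (MEF) cells, in 12 groups of 3 replicates. Both lines of MEF cells carry a doxycycline-inducible dCas9 transgene, integrated with the PiggyBac transposon, on a plasmid that constantly expresses a guide RNA against the major satellite repeats (MSR) of pericentric heterochromatin. MSR-dCas9-Control cells make dCas9 alone, and MSR-dCas9-Activator cells make dCas9 fused to the transcriptional activator VPR. Each line was kept under hygromycin as a mixed culture and not as a clone, and each was sampled uninduced, induced, and at 3 h, 6 h, 12 h and 24 h of recovery once doxycycline had been washed out. Doxycycline was given at 10 ng/ml for 24 h to the Control line and for 6 h to the Activator line, so that the induced groups differ in exposure as well as in effector. The lines were grown apart, so the effector and any other difference between the cultures cannot be told apart after induction except against the uninduced cells of each line. The p53 status of these MEF cells is not given in the sources used here.

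p53 is a sequence-specific transcription factor that is kept scarce by the ubiquitin ligase Mdm2, itself a p53 target, and that accumulates when cells sense DNA damage or other stress. Its targets include cell cycle inhibitors such as Cdkn1a (p21), apoptosis genes of the BCL-2 family such as Bax, Bbc3 (PUMA) and Pmaip1 (NOXA), and feedback regulators. In fibroblasts p53 activation is best known for arrest of the cell cycle, and p53 acts mainly through binding sites made of a pair of half-sites. A rise of target RNAs is often read as a sign of p53 activity, but most of these genes also respond to other factors.

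The 10 genes did not move together in MSR-dCas9-Activator MEF cells. Cdkn1a rose progressively and was 6.77-fold higher than in MSR-dCas9-Control cells 12 h after doxycycline removal, with Mdm2 1.81-fold higher at the same time. Against its own uninduced level Cdkn1a was 5.01-fold higher at 12 h. Before induction it stood at 1.63-fold of Control, a difference that did not pass (adjusted p = 0.208 by edgeR). When libraries were scaled to mitochondrially encoded mRNAs, the Mdm2 difference at 12 h kept its sign but did not pass (log2 fold change of 0.26). Gdf15 was also higher at 12 h. Trp53inp1 was higher than in the Control line at 12 h but stood at 1.06-fold of its own uninduced level (adjusted p = 0.855 by edgeR). By contrast, Phlda3 (0.248-fold) and Zmat3 (0.323-fold) were lower at 12 h, and Bbc3 was lower from induction to 6 h. At 12 h Bbc3 passed as lower only with scaling to mitochondrially encoded mRNAs and without replicate 2 of both lines. At 24 h it passed under no setting tried. Bax and Ccng1 differed by less than 2-fold at every time point. The direction depended on the scaling of the libraries for Bax from 3 to 12 h and for Ccng1 at 3 and 6 h, while Ccng1 was lower at 24 h under each setting tried. Pmaip1 was barely detected.

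Genes held a median of 42865961 counts per library (27376846 to 57371803). Levels are given in CPM, the usual depth-scaled count, relative to the gene library after scaling with the trimmed mean of M-values (TMM), and a count of 3, taken as the detection floor, corresponds to between 0.0512 and 0.109 CPM. Fold changes come from edgeR's quasi-likelihood test over the 28536 genes that passed its filter on low counts, with the replicate number as a block, and a gene is said to pass where the p-value adjusted over all of them (Benjamini-Hochberg) fell below 0.05. Of the 10 genes 9 passed the filter and Pmaip1 did not. The targeted element responded as labelled. Counts for GSAT_MM, the major satellite repeat family, were between 22.6 and 47.1 CPM in the Control line at all time points, between 52.1 and 99.3 in uninduced Activator cells, and between 2363 and 47260 in Activator cells from induction on. Values are relative to each library, and in bulk RNA fewer cells and less RNA per cell cannot be told apart. In the Activator line the share of gene counts from 13 mitochondrially encoded mRNAs ran from 1.97% to 3.60% after induction, against 1.45% to 2.56% in the Control line at all time points. When libraries were scaled to those mRNAs, the median log2 difference of all genes at 12 h moved from 0.12 to -0.49, and directions that turned under this scaling are named beside the gene. Replicate 2 of the Activator line stood apart for several of the 10 genes, as described below.

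The fibroblast identity of the cultures was checked with 9 marker genes, whose summed level ran from 22469 to 34656 CPM in the Control line and from 10866 to 34084 CPM in the Activator line, with the lowest value at 24 h. Of the 8 that could be tested, 1 passed as higher and 6 as lower at 12 h (median log2 fold change -1.13), and 0 and 5 at 24 h (median -1.04), where 34.1% and 29.4% of all genes were lower. None of the 9 was at 0 in all libraries of a group. Of 12 markers of other cell types, summed levels ran from 0.802 to 2.18 CPM in the Control line and from 7.94 to 46.5 CPM in the Activator line after induction, where 7 of the 8 that could be tested passed as higher at each of the 5 time points, as did between 31.7% and 41.1% of all genes. Among them Pecam1, an endothelial adhesion gene, and Alb, the liver albumin gene, had log2 fold changes at 12 h of 6.66 and 11.16. Alb read 6.82, 5.84 and 7.28 CPM in Activator cells at 12 h and 0 in all 3 Control libraries. The size of its fold change is therefore set by how the fit treats zeros. In each Control group between 3 and 6 of the 12 were at 0 in all 3 libraries, Adgre1 in all 6 groups. Their part in the results on p53 targets was not tested.

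The region before the transcription start was searched for p53 half-sites in the RefSeq promoter windows of the mouse genome (build GRCm38.p6), which reach from 250 bases before to 50 bases after each start. The half-site is a pattern of 10 bases that reads the same on both strands, and a full site was counted where 2 half-sites lay at most 13 bases apart. Windows were found for 7 of the 10 genes, and 4 of these 7 held a half-site, against 2582 of all 27025 genes with a window (9.55%). Only Cdkn1a held a full site among the 7, with 12 bases between its 2 half-sites. These begin 73 and 51 bases before the more upstream of its starts, in the window at chr17:29090729-29091028. The other Cdkn1a window, at chr17:29093519-29093818, held no half-site. The search does not reach beyond a window, and which start the full site serves was not tested. Over all genes 20 had a full site (0.074%). The half-site of Mdm2 begins 186 bases before the start, that of Ccng1 185 and that of Bax 201. The windows of Phlda3, Bbc3 and Gdf15 held no half-site, which says only that these letters are not there, and no window was found for Trp53inp1 and Zmat3. The 250 bases before the start of the 4 genes are shown, 5′ to 3′ on the strand of the gene and with half-sites in capitals, because they set the gene that rose most steadily beside 3 genes with smaller or opposite changes. They lie at chr17:29090729-29090978 on the plus strand for Cdkn1a, and on the minus strand at chr10:117710759-117711008 for Mdm2, chr11:40755287-40755536 for Ccng1 and chr7:45466899-45467148 for Bax.
Cdkn1a: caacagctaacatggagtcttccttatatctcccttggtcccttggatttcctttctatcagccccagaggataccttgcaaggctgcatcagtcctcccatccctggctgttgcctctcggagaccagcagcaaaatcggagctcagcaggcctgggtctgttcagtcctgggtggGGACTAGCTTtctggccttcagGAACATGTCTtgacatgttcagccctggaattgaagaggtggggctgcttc
Mdm2: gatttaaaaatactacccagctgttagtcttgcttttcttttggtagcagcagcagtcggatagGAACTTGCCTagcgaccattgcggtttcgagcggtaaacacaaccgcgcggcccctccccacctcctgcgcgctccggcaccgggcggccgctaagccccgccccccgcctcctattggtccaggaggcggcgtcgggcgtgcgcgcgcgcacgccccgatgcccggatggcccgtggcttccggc
Ccng1: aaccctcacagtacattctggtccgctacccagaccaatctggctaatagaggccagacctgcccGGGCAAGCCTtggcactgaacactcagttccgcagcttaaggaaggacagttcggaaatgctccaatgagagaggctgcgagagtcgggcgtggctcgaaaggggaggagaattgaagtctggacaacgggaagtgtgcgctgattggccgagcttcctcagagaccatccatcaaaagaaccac
Bax: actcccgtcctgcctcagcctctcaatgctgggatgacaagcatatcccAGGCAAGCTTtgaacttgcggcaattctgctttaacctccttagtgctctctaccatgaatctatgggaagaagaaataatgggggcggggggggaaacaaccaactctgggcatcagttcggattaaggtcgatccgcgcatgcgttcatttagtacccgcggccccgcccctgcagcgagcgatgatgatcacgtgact

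Before induction the 10 genes covered a wide range of levels. Per kilobase of exon, Ccng1 (ENSMUSG00000020326) was the highest in uninduced Control cells at a mean of 28.8 CPM per kb, followed by Phlda3 at 23.8 and Bax at 21.5. The libraries of Phlda3 (20.8 to 29.4 CPM per kb) overlapped both neighbours in this order. Mdm2 followed at 12.2 CPM per kb, Zmat3 at 5.20 and Bbc3 at 3.74, with no overlap between Mdm2 and Zmat3. Cdkn1a at 0.669 and Trp53inp1 at 0.644 CPM per kb overlapped each other, Gdf15 was at 0.105, and Pmaip1 had no count in these 3 libraries. None of the 9 genes tested differed between the uninduced lines by the adjusted p-value, where 0.883% of all genes passed as higher in the Activator line and 0.343% as lower.

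The comparison of the lines at each later time point asks how the targets respond once the MSR-targeted activator is made. In induced cells 3 of the 9 passed as higher and 3 as lower in the Activator line, where 31.7% and 25.5% of all genes did. At 3 h 4 were higher and 3 lower, against 39.6% and 31.4% of all genes. At 6 h the numbers were again 4 and 3, against 40.8% and 33.3%. At 12 h 5 were higher and 2 lower, against 41.1% and 34.1%, and at 24 h 4 and 3, against 34.5% and 29.4%. These shares lie close to those of all genes, so the counts set the 10 genes apart from the transcriptome in neither direction. Without replicate 2 of both lines, 4 were higher and 3 lower in induced cells and likewise at the 3 h and 6 h times, while 12 h and 24 h each gave 5 and 3. With scaling to mitochondrial mRNAs, 3 rather than 5 passed as higher at 12 h and 4 rather than 2 as lower.

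**Figure D1:**
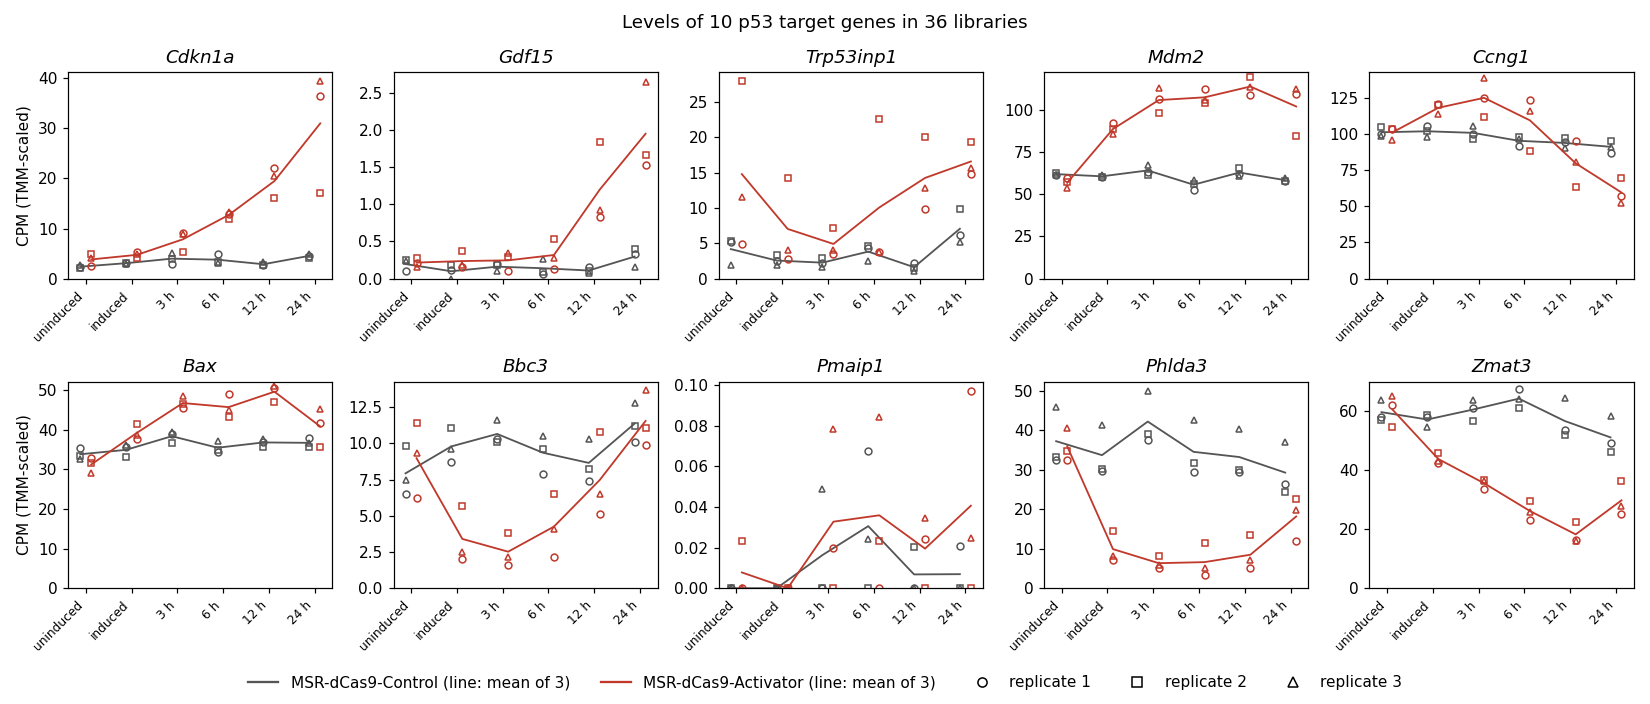
Level of each of the 10 genes in CPM (vertical axes, each from 0) at the 6 time points (horizontal axes), with 1 symbol per library and a line through the mean of 3. Cdkn1a in the Activator line climbs from a mean of 3.82 CPM to 31.0 CPM at 24 h while the Control line stays under 5.03 CPM, and Phlda3 and Zmat3 fall below every Control library from induction on.

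Cdkn1a (ENSMUSG00000023067, chr17:29090976-29100727, plus strand, GRCm38) encodes p21, the cyclin-dependent kinase inhibitor that arrests the cell cycle. In the 3 replicates of uninduced Control cells it was at 2.35, 2.15 and 2.64 CPM, and over all 18 Control libraries it ran from 2.15 to 5.02 CPM with a median of 3.14. In the Activator line it was at 2.51, 4.95 and 4.02 CPM before induction and at 5.25, 4.06 and 4.93 CPM after it. The uninduced groups overlapped, with replicates 2 and 3 of the Activator line above every uninduced Control library. It then read 9.16, 5.40 and 8.96 CPM at 3 h, 12.9, 11.9 and 13.3 CPM at 6 h, and 22.1, 16.0 and 20.4 CPM at 12 h. At 24 h it reached 36.5, 17.1 and 39.4 CPM, so that replicate 2 was the lowest of the 3 while still above every Control library. From induction on the groups did not overlap at any of the 5 time points. Over Control this was a log2 fold change of 0.61 in induced cells (SE 0.24, adjusted p = 0.0311 by edgeR), 0.97 at 3 h (SE 0.23, adjusted p = 6.15e-04) and 1.76 at 6 h (SE 0.24, adjusted p = 1.74e-07). At 12 h it was 2.76 (SE 0.24, adjusted p = 4.66e-11) and at 24 h 2.74 (SE 0.24, adjusted p = 1.20e-10). The values in induced cells and at 3 h no longer passed when libraries were scaled to mitochondrial mRNAs (log2 fold changes of 0.26 and 0.36). The value in induced cells also no longer passed without Activator replicate 1 (0.54), Control replicate 1 (0.58) or Control replicate 3 (0.52), and the uninduced lines differed past the threshold without Activator replicate 1 (0.99, adjusted p = 0.0309).

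The change of Cdkn1a differed from that in the Control line past the threshold from 6 h on, and from 12 h on when libraries were scaled to mitochondrial mRNAs. The difference between the lines in the change from uninduced, an interaction test in the same fit, was -0.10 on the log2 scale in induced cells (adjusted p = 0.91) and 0.26 at 3 h (adjusted p = 0.58). It was 1.05 at 6 h (SE 0.34, adjusted p = 0.011), 2.05 at 12 h (SE 0.34, adjusted p = 1.5e-05) and 2.03 at 24 h (SE 0.34, adjusted p = 4.3e-05). Within the Activator line Cdkn1a was 3.28-fold above uninduced at 6 h, 5.01-fold at 12 h and 7.83-fold at 24 h. The Control line showed a log2 change of 0.94 at 24 h that missed the threshold (adjusted p = 0.064). The unnamed model AC167363.2 overlaps Cdkn1a on the opposite strand, and since the strand setting of the counting is not stated, reads of the 2 could not be told apart.

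Ccng1 (chr11:40748552-40755311, minus strand) encodes cyclin G1, a p53 target that takes part in feedback on p53. In the Control line it ran from 87.1 to 106 CPM in 18 libraries. In the Activator line it read 121, 120 and 114 CPM in induced cells, 125, 112 and 139 CPM at 3 h, and 57.3, 69.4 and 52.1 CPM at 24 h. The induced and 3 h libraries lay above and the 24 h libraries below those of the Control line at the same time. Its log2 fold change was 0.31 at 3 h (adjusted p = 0.0174), which turned to -0.30 with scaling to mitochondrial mRNAs. At 24 h it was -0.61 (SE 0.12, adjusted p = 4.1e-05) and kept its sign under that scaling. The 3 h value no longer passed without Activator replicate 3 (0.26), Control replicate 1 (0.29) or Control replicate 2 (0.29). The value of 0.20 at 6 h did not pass, but did without Activator replicate 2 (0.33) and with DESeq2 (0.37), and it turned to -0.53 with scaling to mitochondrial mRNAs. That of -0.24 at 12 h did not pass either, but did without Activator replicate 1 (-0.27), without TMM (-0.35), with repeat counts in the library size (-0.27) and with scaling to mitochondrial mRNAs (-0.87). At 24 h Ccng1 was thus lower while Cdkn1a was higher in the same libraries. The difference between the lines in the change from uninduced at 24 h was -0.61 (SE 0.16, adjusted p = 0.0047).

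Mdm2 (ENSMUSG00000020184, chr10:117688875-117710758, minus strand), the ubiquitin ligase that limits p53, was steady in the Control line, with a range from 52.5 to 67.5 CPM. In uninduced Activator cells it was at 59.8, 57.0 and 53.4 CPM. In induced cells it read 91.9, 88.3 and 85.5 CPM, at 3 h 106, 98.0 and 113 CPM, and at 6 h 112, 104 and 106 CPM. It was at 109, 119 and 113 CPM at 12 h and at 109, 84.5 and 112 CPM at 24 h, where replicate 2 was again the lowest. All 15 Activator libraries from induction on lay above all 18 Control libraries. Relative to Control its log2 fold change was 0.55 in induced cells (SE 0.08, adjusted p = 1.59e-06), 0.95 at 6 h (SE 0.08, adjusted p = 3.73e-11) and 0.80 at 24 h (SE 0.08, adjusted p = 1.88e-09). The interaction test passed at all 5 time points, with values from 0.67 to 1.07, and under scaling to mitochondrial mRNAs at 24 h alone (0.70). The fold over Control was at most 1.93, at 6 h. When libraries were scaled to mitochondrial mRNAs the log2 fold change kept its sign but passed only at 24 h (0.61), with 0.12 to 0.26 at the 4 earlier time points.

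Trp53inp1 (chr4:11156431-11174379, plus strand) encodes a nuclear protein that promotes p53 activity and takes part in autophagy. Its libraries scattered widely, and replicate 2 of the Activator line was the highest at every time point. In uninduced Activator cells it read 4.89, 27.9 and 11.5 CPM, in induced cells 2.80, 14.2 and 4.05 CPM, and at 6 h 3.79, 22.6 and 3.81 CPM. In the Control line 18 libraries ran from 1.13 to 9.87 CPM with a median of 2.73. At 12 h the Activator libraries were at 9.82, 20.05 and 12.8 CPM and the Control libraries at 2.26, 1.43 and 1.13 CPM, without overlap. The log2 fold change at 12 h was 3.08 (SE 0.50, adjusted p = 7.42e-06) and at 24 h 1.31 (SE 0.44, adjusted p = 0.0131), the latter not passing without Activator replicate 3 (1.11). The values in induced cells (1.24, adjusted p = 0.0295) and at 6 h (1.11, adjusted p = 0.0355) went to 0.80 and 0.32 without Activator replicate 2 and no longer passed. They also no longer passed without Control replicate 2 (1.07 and 0.89) or Control replicate 3 (1.26 and 1.04). The uninduced lines differed by a log2 fold change of 1.65 that missed the threshold (adjusted p = 0.0876) and that passed without Activator replicate 1 (2.05). No interaction test passed for Trp53inp1, with 1.43 at 12 h (SE 0.66, adjusted p = 0.075), and within the Activator line it was lower than uninduced at 3 h (0.360-fold, adjusted p = 0.00566).

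Bax (ENSMUSG00000003873, chr7:45461697-45466898, minus strand) encodes a protein that opens the outer mitochondrial membrane in apoptosis. It varied little, from 32.7 to 39.6 CPM in the Control line. In the Activator line it was at 32.9, 31.7 and 29.2 CPM before induction and rose to 50.7, 47.1 and 51.1 CPM at 12 h, above all Control libraries of that time (37.0, 35.7 and 37.7 CPM). At 24 h it read 41.6, 35.8 and 45.1 CPM and the lines overlapped. The log2 fold change over Control was 0.29 at 3 h, 0.37 at 6 h and 0.43 at 12 h (SE 0.07 at each, adjusted p = 7.65e-06 at 12 h), and under scaling to mitochondrial mRNAs these turned to -0.32, -0.34 and -0.18. The interaction values, which passed from induction to 12 h, turned negative as well and no longer passed. Without Activator replicate 2 the value at 24 h passed (0.23, and 0.15 with it), and in induced cells the value passed without Activator replicate 1 or 3 (0.21 each, and 0.17 with all). The model Gm45808 overlaps Bax on the same strand, and reads of the shared stretch could be split between them.

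Bbc3 (chr7:16308393-16318205, plus strand) encodes PUMA, a BH3-only protein that binds and blocks anti-apoptotic BCL-2 proteins. It fell early and recovered. Control libraries ran from 6.50 to 12.8 CPM, and uninduced Activator cells were at 6.21, 11.4 and 9.35 CPM. In induced Activator cells it read 2.04, 5.68 and 2.495 CPM, at 3 h 1.58, 3.82 and 2.17 CPM, and at 6 h 2.17, 6.52 and 4.09 CPM. Replicate 2 was the highest at each of these 3 time points, and all 9 libraries lay below the Control libraries of the same time. At 12 h it was back at 5.13, 10.8 and 6.53 CPM and at 24 h at 9.91, 11.1 and 13.7 CPM, with overlap between the lines at both. Against the Control line Bbc3 had a log2 fold change of -1.61 in induced cells (SE 0.25, adjusted p = 3.33e-06), -2.16 at 3 h (SE 0.25, adjusted p = 2.01e-08) and -1.21 at 6 h (SE 0.24, adjusted p = 7.83e-05). At 12 h it was -0.26 (95% interval from -0.73 to 0.20) and at 24 h 0.02 (from -0.44 to 0.47). The 12 h value did not pass, but did with scaling to mitochondrial mRNAs (-0.87) and without replicate 2 of both lines (-0.51). Within the Activator line Bbc3 rose from 6 to 12 h (1.79-fold, adjusted p = 0.0273 by edgeR) and from 12 to 24 h (1.60-fold, adjusted p = 0.0258). The libraries of these successive times overlapped.

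Pmaip1 (chr18:66458533-66465565, plus strand), which encodes the BH3-only protein NOXA, held 23 counts in all 36 libraries together and at most 4 in any. It was at 0 in 22 libraries. In the Control line it was at most 0.0676 CPM and in the Activator line after induction at most 0.0970 CPM, both within the range of the detection floor, so that a change was not detectable at this depth.

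Phlda3 (ENSMUSG00000041801, chr1:135766119-135769136, plus strand) encodes a small pleckstrin homology domain protein that competes with the kinase Akt for membrane lipids. It ran from 24.3 to 49.9 CPM in the Control line, where replicate 3 was the highest at every time point. In uninduced Activator cells it was at 32.4, 34.6 and 40.6 CPM. It fell to 7.21, 14.4 and 8.08 CPM in induced cells, 4.99, 8.25 and 5.76 CPM at 3 h and 3.34, 11.4 and 5.07 CPM at 6 h, then read 5.03, 13.3 and 7.04 CPM at 12 h and 12.0, 22.7 and 19.8 CPM at 24 h. At all 5 time points the Activator libraries lay below those of the Control line, and replicate 2 of the Activator line was the highest of its 3. The log2 fold change was -1.80 in induced cells (SE 0.30, adjusted p = 1.53e-05), -2.75 at 3 h (SE 0.31, adjusted p = 2.70e-08) and -2.01 at 12 h (SE 0.30, adjusted p = 1.93e-06). At 24 h it was -0.73 (SE 0.29, adjusted p = 0.0286), a value that no longer passed without Activator replicate 1 (-0.62) or 3 (-0.75) or Control replicate 1 (-0.64) or 3 (-0.61). Between 12 and 24 h Phlda3 rose 2.15-fold in the Activator line (adjusted p = 0.00619).

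Zmat3 (ENSMUSG00000027663, chr3:32334792-32366014, minus strand) encodes a zinc finger protein that binds RNA and regulates splicing. Its decline was slower and more even between replicates than that of Phlda3. Control libraries ran from 45.9 to 67.3 CPM. In the Activator line it went from 61.9, 54.4 and 64.8 CPM before induction to 42.2, 45.6 and 43.1 CPM in induced cells, 33.6, 36.5 and 36.3 CPM at 3 h and 23.1, 29.4 and 25.8 CPM at 6 h. The lowest level came at 12 h with 16.3, 22.3 and 15.9 CPM, followed by 24.9, 36.2 and 27.9 CPM at 24 h. No Activator library overlapped the Control libraries of the same time from induction on. The log2 fold change was -0.39 in induced cells (SE 0.12, adjusted p = 0.00717), -1.30 at 6 h (SE 0.12, adjusted p = 2.49e-10), -1.63 at 12 h (SE 0.12, adjusted p = 2.45e-12) and -0.78 at 24 h (SE 0.12, adjusted p = 2.75e-06). The interaction test passed from 3 h on, with values from -1.65 to -0.79, and the rise from 12 to 24 h was 1.63-fold (adjusted p = 1.13e-04).

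Gdf15 (chr8:70629393-70632456, minus strand) encodes a secreted stress cytokine of the TGF-beta superfamily that is induced by p53 and by the integrated stress response. It was low, with a mean normalised count of 18.1, under the mean of 100 that the study required of a changed gene. Control libraries ran from 0 to 0.403 CPM, and Activator libraries from uninduced to 6 h from 0.0987 to 0.534 CPM, with overlap at each of these times. It then rose to 0.822, 1.84 and 0.927 CPM at 12 h and 1.53, 1.67 and 2.65 CPM at 24 h, above every Control library. Its log2 fold change was 3.42 at 12 h (SE 0.52, adjusted p = 9.87e-07) and 2.74 at 24 h (SE 0.44, adjusted p = 4.09e-06), with interaction values of 3.22 (adjusted p = 0.0012) and 2.54 (adjusted p = 0.0079). Within the Activator line the step from 6 to 12 h passed (3.80-fold, adjusted p = 0.00561) and no earlier step did. The value of 1.11 at 6 h did not pass, but did without Activator replicate 1 (1.43) or Control replicate 3 (2.08), with DESeq2 (1.26) and with its size factors (1.28).

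**Figure D2:**
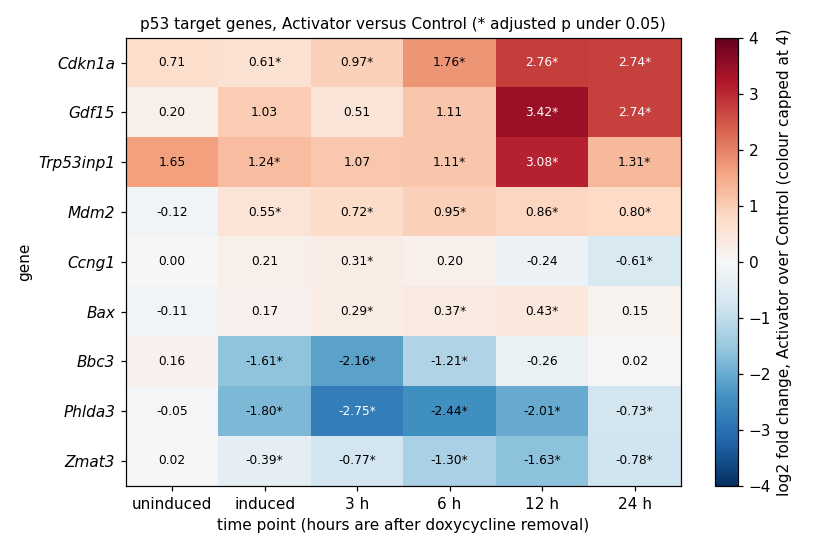
Fitted log2 fold change of Activator over Control (colour and number) for the 9 genes tested (rows) at the 6 time points (columns), with a star where the adjusted p-value was under 0.05. Cdkn1a stands at positive values at all 6 time points, with 0.71 and no star before induction. Mdm2 stands at positive values from induction on, and Phlda3 and Zmat3 at negative values. The positive values of Bax from 3 to 12 h and of Ccng1 at 3 and 6 h turn negative under scaling to mitochondrial mRNAs.

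The members also differed in when their change passed the interaction test. For Mdm2, Phlda3, Bbc3 and Bax it passed already in induced cells (0.67, -1.75, -1.77 and 0.28 on the log2 scale, with 0.27 for Mdm2 and -0.12 for Bax, neither passing, under scaling to mitochondrial mRNAs), for Zmat3 from 3 h on, for Cdkn1a from 6 h on and for Gdf15 from 12 h on. Whether these times differ between genes was not tested. In induced cells the interaction test was passed by 2 of the 9 in the positive direction and 2 in the negative, where 14.5% and 17.7% of all genes did so. At 3 h there were 2 positive and 3 negative values, against 21.4% and 25.7% of all genes, and at 6 h 3 and 3, against 22.4% and 27.7%. At 12 h 4 were positive and 2 negative, with 23% and 28% among all genes, and at 24 h 3 and 2, with 14.4% and 18.7%.

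Changes from the uninduced cells were also taken within each line. In the Control line none of the 9 genes passed against uninduced at any of the 5 time points by edgeR, with 6 of 45 values under an unadjusted p of 0.05, and with DESeq2 1 value passed. Few genes of any kind did so in that line. In induced Control cells 0.0526% of all genes were higher and 0.161% lower, at 3 h 0.291% and 0.259%, and at 6 h 0.105% and 0.298%. The shares at 12 h were 0.161% higher and 0.89% lower, and those at 24 h 0.242% and 0.547%. In the Activator line 17 of 45 values passed as higher and 17 as lower. Induced Activator cells had 2 of the 9 above and 4 below uninduced, where 32.9% of all genes were above and 28% below. At 3 h 4 were above and 4 below (39.8% and 33.3% of all genes), and at 6 h 3 and 3 (40.5% and 34%). The numbers for 12 h were 4 and 3 (40.2% and 34.9%), the same as for 24 h (34.3% and 28.5%). Since the uninduced libraries are shared by these comparisons, they are not independent of each other.

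Steps between successive times in the Activator line showed when the members moved. From induced cells to 3 h, 3 of the 9 passed as rising and 0 as falling by edgeR, where 5.25% and 4.77% of all genes did, and 5 had an unadjusted p under 0.05. Between 3 and 6 h none passed in either direction by edgeR, against 0.543% and 0.592% of all genes, although 3 were under an unadjusted p of 0.05. From 6 to 12 h 2 rose and 2 fell (4.51% and 4.96% of all genes). The step from 12 to 24 h had the most calls, with 4 rising and 2 falling, and also among all genes, of which 17.5% rose and 19.5% fell.

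Trp53, the gene for p53 itself, differed by less than 2-fold between the lines at each time point. It read 250.4, 238 and 245 CPM in Control cells and 273, 172 and 216 CPM in Activator cells at 12 h, with a log2 fold change at 12 h of -0.17 that did not pass. At 24 h it was at 205, 142 and 175 CPM in the Activator line and 226, 205 and 230 CPM in the Control line, a log2 fold change of -0.35 that passed. Under scaling to mitochondrial mRNAs its values of 0.01, 0.22 and 0.12 in induced cells, at 3 h and at 6 h turned to -0.35, -0.39 and -0.59. p53 is regulated mainly as a protein, which was not measured here.

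Of the 16 genes for p53 and its regulators, 3 passed as higher and 9 as lower at 12 h, where 41.1% and 34.1% of all genes did. At 24 h 1 was higher and 10 lower, against 34.5% and 29.4%. The median log2 fold change of the list was -0.33 at 12 h, where that of all genes was 0.12. Mdm4, the partner of Mdm2 that inhibits p53, moved opposite to Mdm2 and had log2 fold changes of -1.10 at 12 h and -0.78 at 24 h. It read 57.3, 91.7 and 67.6 CPM in Activator cells at 12 h and 157, 165 and 137 CPM in Control cells, without overlap. The DNA damage kinases Chek2 (-2.09 at 12 h) and Atm (-1.50), as well as Trp53bp1 (-1.40), a DNA break repair factor, were lower too. Cdkn2a, which encodes the Mdm2 inhibitor Arf as well as p16, had a log2 fold change of 0.27 at 12 h that passed and that turned to -0.37 with scaling to mitochondrial mRNAs. The 3 that passed as higher at 12 h were Cdkn2a, Chek1 (0.33) and the p53 relative Trp73 (5.01), the last 2 named after their values were seen. Trp73 was low, at 0.556, 0.219 and 0.275 CPM in Activator cells at 12 h. The Control libraries, at 0, 0 and 0.0236 CPM, lay under the detection floor, so the size of its fold change is uncertain.

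Among 35 other p53 targets more genes were lower than higher. At 12 h 6 passed as higher and 19 as lower, with a median log2 fold change of -0.49, where 41.1% of all genes were higher and 34.1% lower. At 24 h the numbers were again 6 and 19, against 34.5% and 29.4% of all genes, with a median of -0.38 against 0.01 for all genes. With the study's further limits of a 2-fold change and a mean count above 100, 3 were higher and 15 lower at 12 h, where 4.29% and 10.9% of all genes were, and 2 higher and 7 lower at 24 h, against 3.34% and 4.12%. The 3 that were higher at 12 h were Trp53cor1 (6.46), the long non-coding RNA also known as lincRNA-p21, Gadd45a (1.24), a growth arrest and DNA damage gene, and Btg2 (1.06), an anti-proliferative gene. Gadd45a read 9.21, 14.1 and 11.6 CPM in Activator cells at 12 h against 5.61, 5.47 and 3.80 CPM in Control cells, after it had been lower in induced cells with a log2 fold change of -0.99. Btg2 followed the same course, from -0.61 in induced cells to 1.06 at 12 h. The largest falls at 12 h were those of Pidd1 (-2.52), a death domain protein, Tigar (-1.93), a regulator of glycolysis, and Rap2b (-1.89), a small GTPase. At 24 h they were those of Psrc1 (-1.68), a microtubule-associated protein, Fdxr (-1.43), ferredoxin reductase, and Pidd1 (-1.37). Perp, an apoptosis and adhesion gene, passed already between the uninduced lines, with 2.91, 2.12 and 2.38 CPM in the Activator and 0.102, 0.0613 and 0.214 CPM in the Control line.

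**Figure D3:**
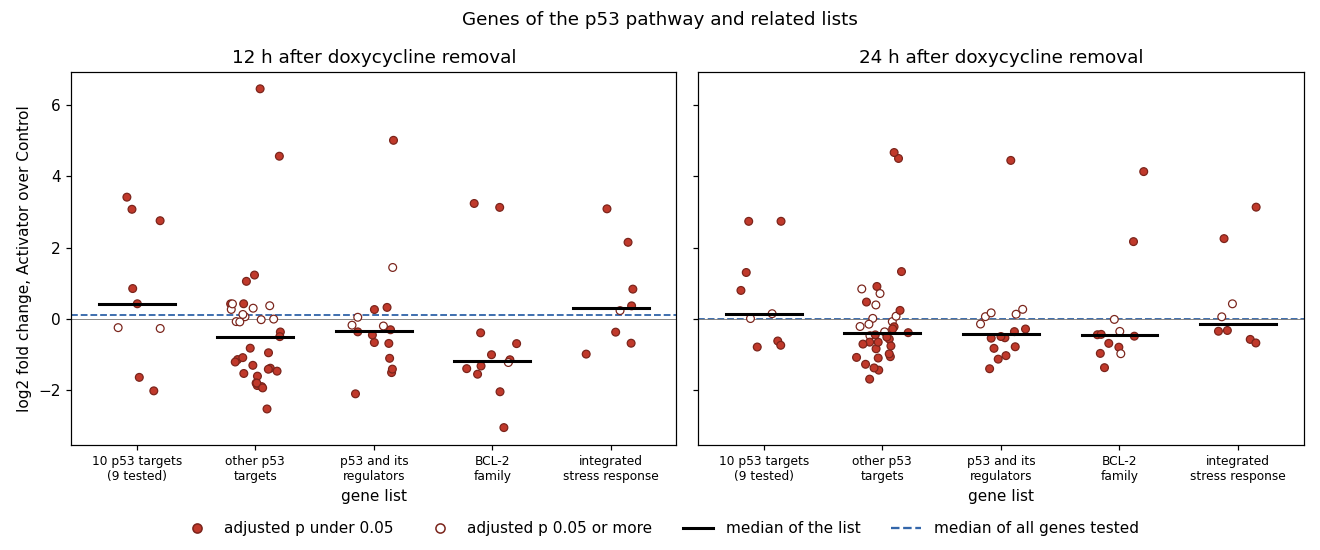
Fitted log2 fold change of Activator over Control (vertical axis) at 12 h and 24 h after doxycycline removal, with 1 point per gene in 5 lists (horizontal axis), filled where the adjusted p-value was under 0.05, a black bar at the median of each list and a dashed line at the median of all genes tested. The medians of the other p53 targets and of the BCL-2 family at 12 h (-0.49 and -1.18) lie below the dashed line at 0.12, and the 9 tested p53 targets spread on both sides of it.

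The BCL-2 family, in which Bax and Bbc3 act, was lower for the larger part. Of 12 further members of the family 2 passed as higher and 9 as lower at 12 h, against 41.1% and 34.1% of all genes, and 2 and 7 at 24 h, against 34.5% and 29.4%. The anti-apoptotic gene Bcl2l1 (BCL-XL) had a log2 fold change of -2.34 in induced cells, -3.54 at 3 h, -3.04 at 12 h and -0.96 at 24 h. It read 9.19, 23.2 and 11.2 CPM in Activator cells at 12 h and 114, 111 and 118 CPM in Control cells, with replicate 2 of the Activator line again the nearest to the Control line. Bcl2 was at 8.39, 13.9 and 9.58 CPM against 42.7, 45.1 and 41.3 CPM, a log2 fold change of -2.04. Other pro-survival and pro-apoptotic genes were lower at 12 h alike, with -1.31 for the pro-survival Bcl2l2, -1.54 for the BH3-only Bid, -1.14 for the BH3-only Bcl2l11 (BIM) and -1.39 for Bak1, which acts like Bax at mitochondria. The 2 that passed as higher were the BH3-only genes Hrk (3.24 at 12 h) and Bik (3.13), both under a mean count of 100 and named after their values were seen.

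**Figure D4:**
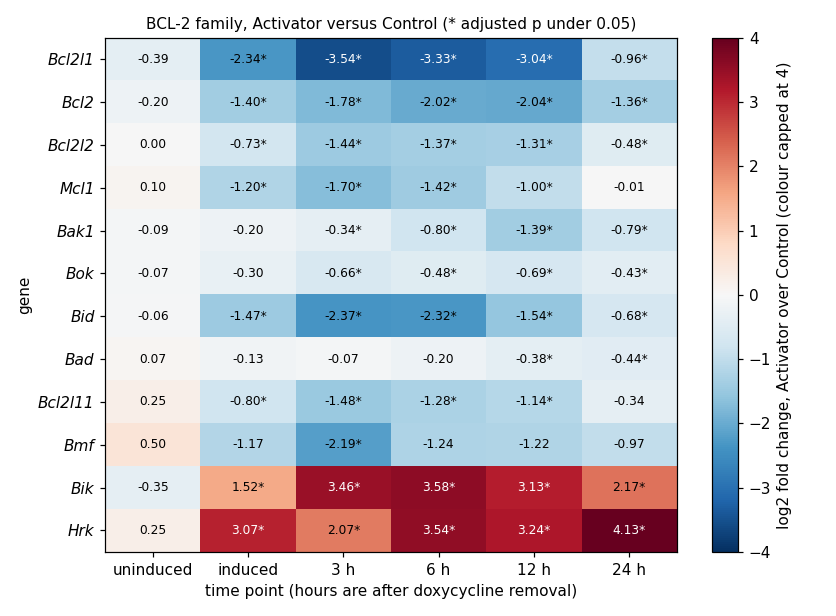
Fitted log2 fold change of Activator over Control (colour and number) for 12 BCL-2 family genes (rows, the first 4 pro-survival) at the 6 time points (columns), with a star where the adjusted p-value was under 0.05. Bcl2l1 has the lowest values, down to -3.54 at 3 h, and the values of most genes move back towards 0 at 24 h.

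Since Gdf15 and some other p53 targets also answer to the integrated stress response, its transcription factors were examined. Atf4 had log2 fold changes of -0.81 in induced cells, -0.37 at 12 h and -0.34 at 24 h, and Ddit3 (CHOP) of -0.55, 0.24 and 0.06, of which the last 2 did not pass. Trib3, a target of both, was lower at -1.34, -0.68 and -0.67. The later values depended on the processing. Of 18 settings, the main fit included, Atf4 passed in 12 at 12 h and 13 at 24 h, and Trib3 in 10 and 9. Of the 8 genes in the list, 4 passed as higher and 3 as lower at 12 h, against 41.1% and 34.1% of all genes. At 24 h 2 were higher and 4 lower, against 34.5% and 29.4%. Atf3 (3.09 at 12 h) and Ppp1r15a (2.15) were the 2 that passed the study's limits as higher at 12 h and at 24 h. Of all genes 4.29% did so at 12 h and 3.34% at 24 h. Both genes are named after their values were seen. Atf3, a stress-induced transcription factor, read 29.8, 52.4 and 46.3 CPM in Activator cells at 12 h and 77.8, 47.7 and 97.3 CPM at 24 h, against at most 9.18 CPM in the Control line at those times. Ppp1r15a (GADD34), a phosphatase subunit that ends the stress response, read 154, 67.8 and 161 CPM at 24 h in the Activator line, and here replicate 2 was low as it was for Cdkn1a.

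Cdkn1a lies in a stretch of chromosome 17 in which other genes were higher as well, as were 41.1% of all genes at 12 h. This stretch was looked at after the value of Trp53cor1 was seen, so its genes are described without a test. Of 12 genes with a fitted value that reach within 100 kb of Cdkn1a, itself included, Trp53cor1 starts 11797 bases before Cdkn1a and is read in the opposite direction. Its level was 0.648, 0.653 and 0.648 CPM in uninduced Activator cells, 26.3, 9.25 and 30.5 CPM in induced cells and 51.5, 32.8 and 44.5 CPM at 12 h, against at most 0.914 CPM in any Control library. In induced cells the Activator libraries were thus already far above the Control line for Trp53cor1, with Cdkn1a between 4.06 and 5.25 CPM in the same libraries. Trp53cor1 overlaps AC167363.1 on the opposite strand (5.54 in induced cells), and their reads cannot be told apart without the strand setting. On the other side Rab44, a large GTPase gene, had log2 fold changes of 3.01 in induced cells and 5.72 at 12 h, and Cpne5, a calcium-dependent lipid-binding protein gene, 3.38 and 6.60. The mean normalised counts of Rab44 and Cpne5 were low, at 19.2 and 57.3. The kinase gene Stk38 had -0.88 and -1.58, and the splicing factor gene Srsf3 0.31 and 0.23.

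**Figure D5:**
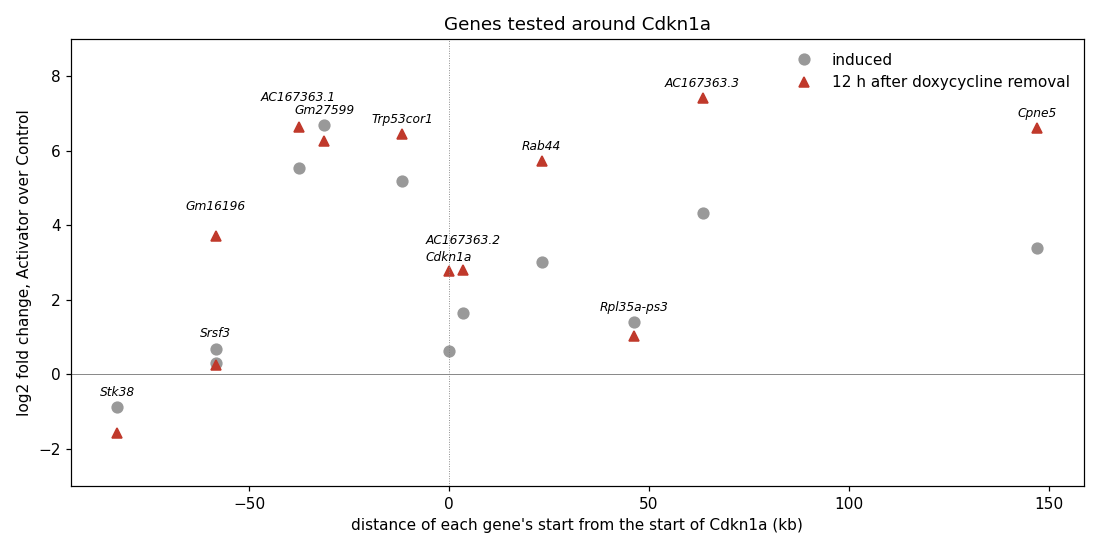
Fitted log2 fold change of Activator over Control (vertical axis) for the 12 genes around Cdkn1a, against the distance of each gene's start from that of Cdkn1a in kb (horizontal axis), in induced cells (circles) and 12 h after doxycycline removal (triangles). Trp53cor1, 11797 bases away, is at 5.18 in induced cells, when Cdkn1a is at 0.61.

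As a description of likeness, the genes whose log2 levels followed Cdkn1a most closely over the 36 libraries, among 13628 genes with a mean count above 100, were AC154187.1 (Pearson r of 0.97), Kctd19, P2rx7, Sept1 and Elmod3 (0.96 each). For Mdm2 they were Plch2, Calcr, Rbm18, Pkd1l3 and Gif (0.98 each). None of the 10 genes studied here was among these. Between Cdkn1a and the others of the 10, r was 0.82 with Mdm2, 0.81 with Gdf15, -0.63 with Phlda3 and -0.87 with Zmat3. The libraries fall into groups by line and time point, and no p-value is attached to these values.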

How the data were processed

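RNA was measured in 36 libraries (12 groups of 3). Paired-end reads had been trimmed, mapped by STAR (genome GRCm38) and assigned by TEtranscripts to genes and repeats, and the values the authors deposited are raw counts. Not given in the sources used here are the strand setting, the annotation release and the handling of multi-mapping reads. Of 54842 genes 54495 matched GENCODE M21, which gave positions. The 1561 repeat families served only to check the targeted element, and 1 unnamed row (at most 0.00452% of a library) was left out. Libraries of the MSR-dCas9-Repressor line were not used here.

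R 4.3.3 with edgeR 4.0.16 was used (filterByExpr, TMM factors from genes, robust quasi-likelihood fit of 12 groups plus replicate number, as in the study's design). The standard error was taken as |log2 fold change| over √F, from the quasi-likelihood F statistic. P-values were adjusted over all 28536 genes by Benjamini-Hochberg, and the study's limits are an adjusted p-value under 0.05, a change over 2-fold and a mean normalised count above 100. The study describes the 3 replicates as independent experiments. Replicate pairs of a group differed beyond sampling noise (chi-square per gene from 16.2 to 254 in 36 pairs). On simulated counts of 28536 genes for the 12 h comparison, 80 of 100 genes changed by a log2 fold of 1 and 21 of 100 changed by 0.5 were called. There were 8 false calls among the genes left unchanged. The simulation changed few genes and held no replicate effect. In the data 41.1% of all genes passed as higher at 12 h and 34.1% as lower, so these rates do not carry over to them. Depth intervals and floors cover counting error only.

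The 10 genes and the gene lists were chosen with earlier results of these data known. Named in the text are all 10, the 3 largest rises and falls among other p53 targets past the study's limits at 12 h and at 24 h, every regulator and BCL-2 family gene past them, Trp53, Mdm4, Cdkn2a, Atf4, Ddit3, Trib3, and the 5 genes most like Cdkn1a and Mdm2. Genes named outside this rule, such as Perp, Pecam1, Alb and the neighbours of Cdkn1a, were picked with their values in view. As alternatives, use was made of DESeq2 1.42.0, of its size factors, of unscaled library sizes in place of TMM, scaling to 13 mitochondrially encoded mRNAs, library sizes that include repeats, no filter on low counts, no replicate block, a fit of the compared libraries alone, and leaving out each library or replicate number.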

Additional observations from a re-analysis of the deposited data

Results flagged for a closer look

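For 8 of the 9 p53 targets tested the change from uninduced differed between the lines at 1 time point or more, by the interaction test of edgeR (adjusted p under 0.05). Of all genes 14.4% to 23% passed as positive and 17.7% to 28% as negative at a single time point. The share of all genes passing at 1 time point or more was not taken, so 8 of 9 does not set the targets apart. The values below are log2 changes in the Activator line minus those in the Control line, and they rest on the same uninduced libraries. Cdkn1a differed by 1.05 at 6 h, 2.05 at 12 h and 2.03 at 24 h. Mdm2 differed by 0.67 in induced cells, then by 0.85 (3 h), 1.07 (6 h), 0.98 (12 h) and 0.93 (24 h). Bax differed by 0.28 in induced cells, 0.40 at 3 h, 0.48 at 6 h and 0.54 at 12 h, which turned to -0.12, -0.24, -0.27 and -0.10 with scaling to mitochondrial mRNAs and then did not pass. Gdf15 differed by 3.22 at 12 h and 2.54 at 24 h. Ccng1 differed by -0.61 at 24 h. With scaling to mitochondrial mRNAs its values at 6 h (-0.57, and 0.20 without it) and 12 h (-0.91, and -0.24 without it) passed as well. Bbc3 differed by -1.77 in induced cells, -2.31 at 3 h and -1.37 at 6 h. Phlda3 differed by -1.75 in induced cells, -2.70 at 3 h, -2.39 at 6 h and -1.96 at 12 h. Zmat3 differed by -0.79 at 3 h and -1.32 at 6 h, and later by -1.65 (12 h) and -0.80 (24 h). Trp53inp1 did not pass at any time point. Of the 26 values that passed, 22 kept their sign under scaling to mitochondrial mRNAs and 17 of these also passed. The other 5 were Cdkn1a at 6 h (0.30) and Mdm2 in induced cells (0.27), at 3 h (0.21), at 6 h (0.33) and at 12 h (0.35).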

How the results depend on the processing

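Counts of genes passing moved by more than 1.5 times in the following settings. With scaling to mitochondrial mRNAs, p53 targets higher in the Activator line numbered 0 in induced cells, 0 at 3 h, 1 at 6 h and 3 at 12 h, those lower 5 at 6 h and 4 at 12 h, those higher than uninduced in the Activator line 7, positive interactions 5, and successive steps down 0, while other p53 targets higher at 12 h were 3, regulators 1 and stress response genes 2. With DESeq2 1 p53 target was higher in uninduced and 5 in induced Activator cells, and 1 value was higher in the Control line. DESeq2 and its size factors both gave 5 in induced cells, 11 other p53 targets higher at 12 h, 3 regulators higher at 24 h, and 1 stress response gene lower at 12 h and 0 at 24 h. Without TMM 1 value was higher in the Control line, 1 successive step was down, 1 regulator was higher at 12 h and 2 stress response genes were lower at 24 h. Without the filter on low counts 1 p53 target was higher in induced cells, 5 successive steps were up and 1 stress response gene was lower at 24 h. In a fit of the compared libraries alone, 1 BCL-2 family gene was higher and 4 lower at 24 h, and 2 stress response genes lower. Without the replicate block 4 successive steps were up and 2 stress response genes were lower at 24 h.

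The fit without the replicate block changed 2 of 36 counts and 11 of 138 gene calls, all to not passing. Same-numbered libraries of the 2 lines correlated at -0.0281 to 0.518 in 18 pairs, 16 of them over 0.1. Of 18 Activator libraries 16 correlated best with the Control library of their own number. What the shared numbers stand for is not stated in the sample titles, and the study's own model included the replicate.

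Leaving out single libraries or replicate numbers gave 0 to 2 p53 targets higher in uninduced cells, 1 to 4 higher in induced cells, 0 to 3 values higher in the Control line, 7 to 14 negative interactions, and 1 to 13 successive steps up and 0 to 6 down. It gave 11 to 19 other p53 targets lower at 24 h, 1 to 3 regulators higher at 12 h and 1 to 4 at 24 h, 1 to 2 BCL-2 family genes higher and 3 to 7 lower at 24 h, and 2 to 4 stress response genes higher and 1 to 3 lower at 12 h and 0 to 4 lower at 24 h.

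Directions turned only with scaling to mitochondrial mRNAs, counted where either value passed: Ccng1 to -0.30 at 3 h and -0.53 at 6 h, Bax to -0.32, -0.34 and -0.18 at 3, 6 and 12 h, Trp53 to -0.35, -0.39 and -0.59 in induced cells, at 3 h and at 6 h, and Cdkn2a to -0.34, -0.43 and -0.37 at 3, 6 and 12 h. The cause of these changes was not tested. Depth limits Pmaip1 and, in the Control line, Gdf15.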
